A study of Mus musculus with 35 samples.

Results

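The genes described here are 36 lysosomal enzymes and membrane proteins, taken from a fixed list of gene symbols. They were found by matching the Ensembl identifiers of the bulk table to symbols. The list, and the lists of other lysosomal genes below, were chosen with earlier results of these data known. Counts and medians over them therefore describe the listed genes and are not support for a statement about lysosomal genes in general. All 36 were among the 53465 genes of the bulk table. By role they comprised 13 proteases, 9 enzymes that act on glycans (8 glycosidases and a sulfatase), 7 enzymes and transporters of lipids, 5 membrane proteins and 2 other proteins of the lysosomal lumen. The study dissociated mouse brains at embryonic day E14.5 and used fluorescence-activated cell sorting (FACS) to separate neural cells, mural cells (pericytes and smooth muscle cells of the vessel wall), endothelial cells and microglia, the resident macrophages of the brain. Each population was sequenced in bulk from 3 wild-type brains, which gave 12 libraries. The libraries of a population are called the first, the second and the third replicate here, in the order of the labels (Mi-340, Mi-343 and Mi-346 for microglia), and values are listed in that order. The 4 populations were collected together and every number occurs once in each, so libraries with the same number were taken to come from the same brain, which the labels do not spell out. Leaving out a replicate leaves out all 4 libraries of its number. Wild-type cells were also sorted singly into wells by gates for the same 4 populations, on plates 1 to 3. They were sequenced with mCEL-Seq2, a 3′ method that counts transcripts by molecular identifiers. The surface markers that the well list gives for the microglia gate are not the same as those of the bulk microglia sort. On plate 5, single cells of *Mof* knockout brains were sequenced in 4 libraries. *Mof*, or *Kat8*, encodes a histone acetyltransferase. Strain, the *Mof* allele and any Cre driver are not given in the sources used here, and the marker field of the well list is blank for every plate 5 well, with some wells of 1 library listed more than once.

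Lysosomes are acidic organelles in which hydrolases break down proteins, glycans and lipids that reach them by endocytosis, phagocytosis or autophagy. The enzymes are made as precursors, are sorted to the lysosome largely by mannose 6-phosphate receptors and work at the low pH that the vacuolar proton pump maintains. Membrane glycoproteins such as LAMP1 line the organelle. Microglia take up dying cells and debris, and in macrophages generally the lysosomal system is well developed, whereas inherited loss of many of these enzymes causes storage disease with severe effects on neurons.

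The bulk libraries held between 17638358 and 98414914 reads on genes, and 1 read was worth 0.264 to 1.77 normalized counts. Neural libraries were made with the TruSeq kit and the other 3 populations with SMART-Seq v4 and Nextera XT, so in bulk the kit and the neural population cannot be told apart. Of the wild-type wells, 686 cells had more than 1500 transcripts (123 neural, 210 mural, 225 endothelial and 128 microglia). Plate 3 was thin, with 14, 10, 13 and 6 cells in the same order. One of its libraries is titled P3_11 while the list of wells and gates numbers it 12, and both were taken as the same library. All 192 cell barcodes occurred in at least 2 of the 11 wild-type libraries. Marker genes assigned 98.4%, 92.9%, 92.9% and 100% of the neural, mural, endothelial and microglial cells to their own gate. The summed level of 12 microglial markers was 383973 to 407108 normalized counts in bulk microglia, 133 to 182 in endothelial, 81.7 to 124 in mural and 12.2 to 21.4 in neural libraries. All 8 markers of border macrophages were also found in bulk microglia, at a sum of 31454 to 40483, and the 7 markers of monocytes and neutrophils at 2717 to 7693. Their part in the microglial values was not tested in bulk. The wild-type single cells came from 3 brains by the study's account, but no source used here ties a plate to a brain, so single-cell p-values measure the spread between plates only. In bulk samples fewer cells of a type and less RNA per cell cannot be told apart.

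The members took a far larger share of the microglial libraries than of any other. Summed over the 36 genes they made up 2.54%, 2.97% and 3.56% of all normalized counts in the 3 microglial libraries. The share was 0.186% to 0.193% in neural, 0.302% to 0.39% in mural and 0.24% to 0.271% in endothelial libraries. No library of another population came near the microglial range. In the single-cell sums the share was 2.17% to 2.35% in the microglia gate on the 3 plates and at most 0.279% in the other gates. The 11 cathepsins alone gave 1.25% to 1.84% of the bulk microglial counts and 0.0701% to 0.111% of the vascular ones. Scaled to exon length, the members highest in microglia were *Lgmn* (60690.1 normalized counts per kb), *Ctss* (46337), *Ctsd* (39297) and *Ctsz* (35131), whereas *Psap* led in neural libraries (3724) and *Ctsz* in mural (4093) and endothelial ones (2580).

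**Figure D1:**
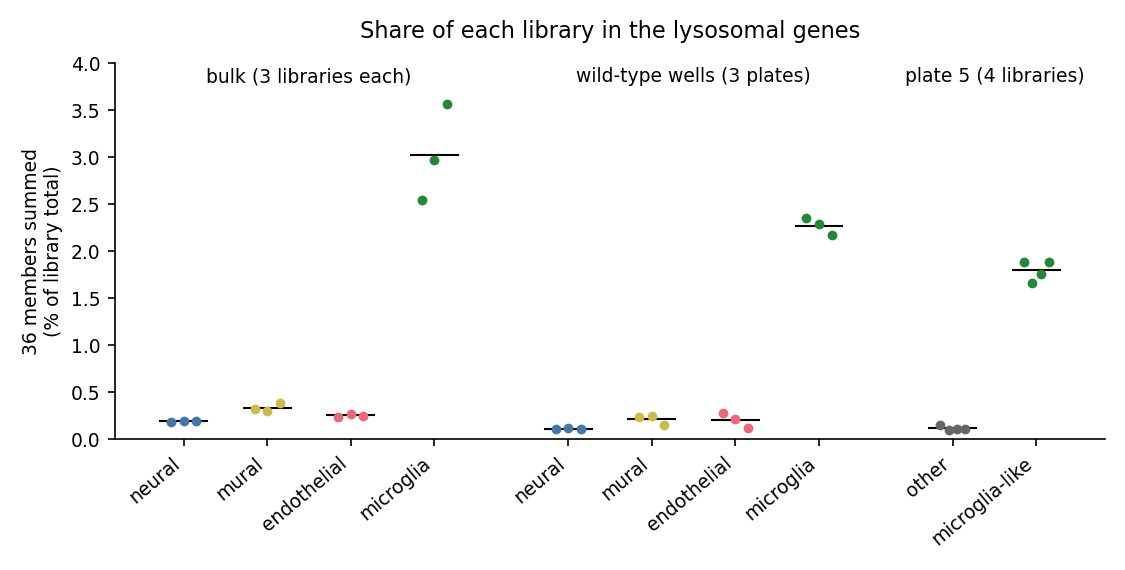
Share of the library total taken by the 36 lysosomal genes together, in percent. Each point is a bulk library (3 per population), a sum of wild-type cells of a gate and plate, or a library of knockout plate 5, and the line is the group mean. The bulk microglia sit between 2.54% and 3.56% and every bulk library of another population is at or below 0.39%.

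Within microglia, the 3 libraries differed in a similar order for most members. The third replicate gave the highest microglial value for 29 of 36 members, or 80.6%, against 40.7% of the 19765 genes tested. The first replicate gave the lowest value for 27 members, or 75%, against 45.9% of all genes. The third gave the lowest value for 2 members, or 5.56%, against 27.6% of all genes.

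To ask which populations carry these transcripts, microglia were first compared with the mean of mural and endothelial cells, which were prepared with the same kit. In bulk, 32 of 36 members were higher in microglia, 1 (*Ctsk*) was lower and 3 (*Gla*, *Sgsh* and *Smpd1*) did not pass the test (limma on log2(normalized count + 1), Benjamini-Hochberg adjusted p under 0.05 over all 19765 genes with a mean of at least 10). Among all genes tested, 19.6% were called higher and 17.6% lower. The median log2 difference of the members was 2.57, and that of all genes 0.0607. Of the members, 13 were called higher with an over 10-fold difference, against 7.85% of all genes. The lowest microglial library lay above all 6 vascular libraries for 29 members, whereas this held for 14.2% of all genes. All 12 library values of each member are shown in the plot of bulk normalized counts.

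**Figure D2:**
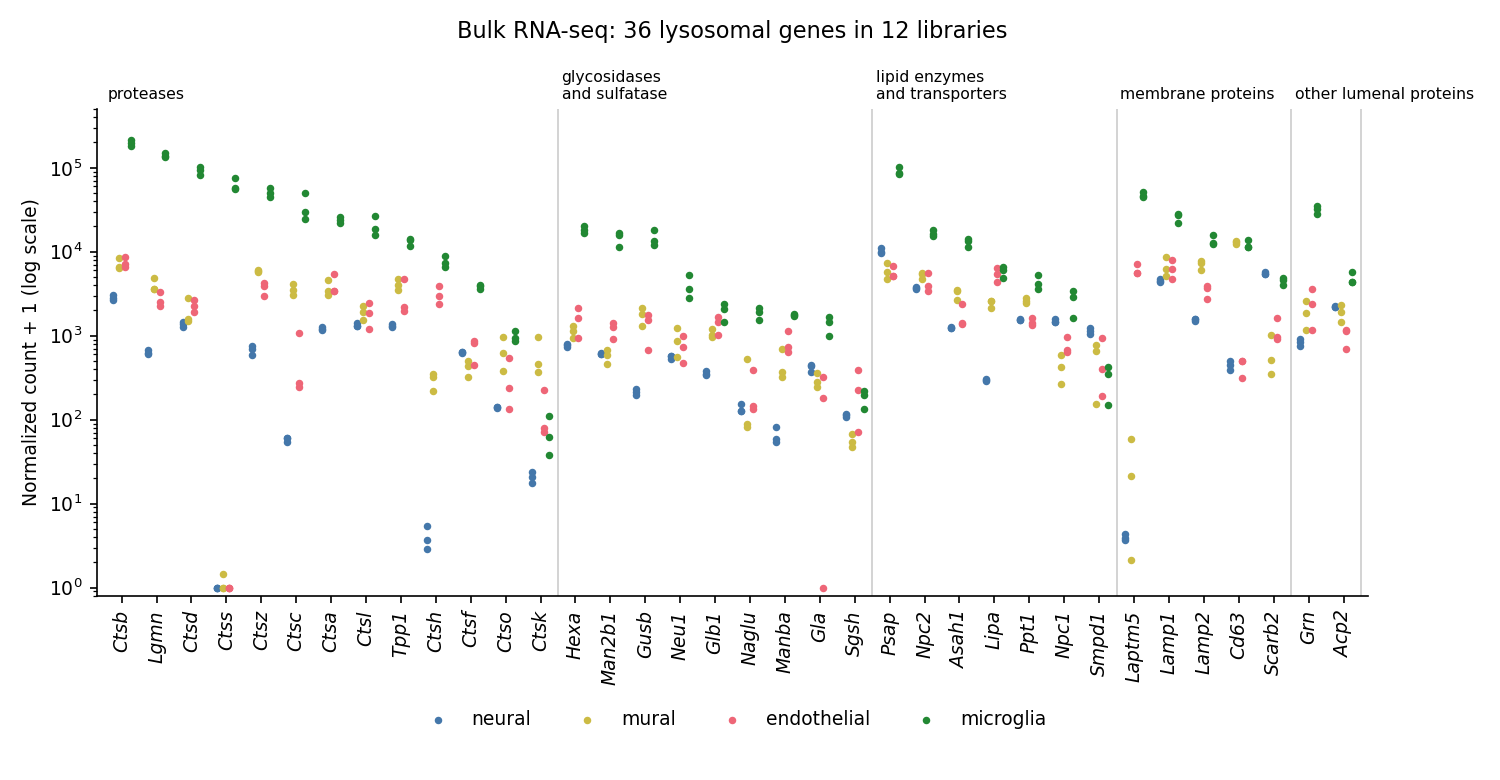
Normalized count plus 1 on a log scale for each of the 36 members in the 12 bulk libraries, ordered within each role group by the microglial mean. Points are single libraries, coloured by population. The microglial points lie above all mural and endothelial points for 29 members, and *Ctss* has 1 read in all other libraries together.

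Among the proteases, 12 of 13 rose in microglia and *Ctsk* fell. Cathepsin S, a cysteine protease that processes the invariant chain for antigen presentation, is encoded by *Ctss* (ENSMUSG00000038642, chr3:95526786-95556403). The 3 bulk microglia libraries held 56095, 58070 and 74613 normalized counts of *Ctss*. The gene had no read in any neural or endothelial library, and a single read, in the first replicate, among the 3 mural libraries. Against 3 reads per library, the floor taken for a count of 0, microglia were at least 13390-fold higher than endothelial and at least 29222-fold higher than neural libraries. *Ctss* was thus the member most restricted to one population in bulk. Cathepsin D, the aspartic protease of the lysosome, is encoded by *Ctsd* (ENSMUSG00000007891, chr7:142375911-142388038). Its microglial values were 81782, 94333 and 101048, against 1500, 1589 and 2829.9 in mural, 1924, 2256 and 2653 in endothelial and 1382, 1468 and 1283 in neural libraries. The microglial libraries stood clear of all 9 others, among which mural and endothelial values overlapped and neural values were lowest. The log2 difference from the vascular mean was 5.48 ± 0.19 (SE), with an adjusted p of 7.15e-09 by limma. An exact permutation test of the 3 microglial against the 6 vascular libraries gave p = 0.0238, the smallest that this design allows (two-sided), for *Ctsd* and for *Ctss*.

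*Ctsk* (ENSMUSG00000028111, chr3:95499256-95509362), whose product cathepsin K degrades collagen and is best known from osteoclasts, went the other way. It was found at 367, 977 and 455 normalized counts in mural, 227, 79.5 and 69.4 in endothelial, 36.8, 60.5 and 111 in microglial and 20, 22.7 and 16.6 in neural libraries. All 3 mural libraries lay above every other library, whereas endothelial and microglial values overlapped. The microglial log2 difference from the vascular mean was -1.94 ± 0.54 (SE) (adjusted p = 0.0152). The call was lost without the first replicate (adjusted p = 0.0977) or the second replicate (0.111) and against the mean of all 3 other populations (0.256), and the exact permutation test gave p = 0.0952. 

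The 8 other proteases were all called higher in microglia. *Lgmn*, the asparaginyl endopeptidase legumain, rose by 5.43 on the log2 scale to 140983 ± 9338 normalized counts (mean ± SD, n = 3), and *Ctsb*, the cysteine protease cathepsin B, by 4.77 to 199012 ± 16470, the highest microglial count of any member. The cysteine proteases *Ctsl* (3.44), *Ctsz* (3.43) and *Ctsf* (2.88), the carboxypeptidase *Ctsa* (2.64), which also protects β-galactosidase and sialidase from degradation, and the tripeptidyl peptidase *Tpp1* (1.99) followed. The smallest difference among these was that of *Ctso* (1.30 ± 0.41 (SE), adjusted p = 0.0286). Its microglial values of 875, 1135 and 934 overlapped the mural values of 962, 379 and 618, and the call was lost with edgeR on the recovered reads (adjusted p = 0.0624) and without any one replicate (0.0511 to 0.193). The remaining proteases, *Ctsc* and *Ctsh*, rose in microglia as well but also separated mural from endothelial cells and are described there.

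The glycosidases rose in 7 of 9 cases. *Man2b1* (ENSMUSG00000005142, chr8:85083270-85098282), the lysosomal α-mannosidase, had microglial values of 11543, 16034 and 16943. It had 585, 461 and 671 in mural, 904, 1417 and 1267 in endothelial and 621, 612 and 603 normalized counts in neural libraries. The microglial values were separate from all others, by a log2 difference of 4.16 ± 0.19 (SE) from the vascular mean (adjusted p = 3.36e-08, exact permutation p = 0.0238). *Hexa* (ENSMUSG00000025232, chr9:59539540-59565109), the α subunit of β-hexosaminidase, was found at 18352, 16849 and 20283 in microglia. Mural libraries held 1296, 951 and 1132, endothelial 944, 2125 and 1603 and neural 739.8, 776 and 788 normalized counts. Again no other library reached the microglial range, and the difference was 3.84 ± 0.22 (SE) (adjusted p = 1.76e-07, exact permutation p = 0.0238).

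*Glb1* (ENSMUSG00000045594, chr9:114401076-114474898), which encodes lysosomal β-galactosidase, differed least of the glycosidases that passed the test. Its microglial values of 1457, 2052 and 2381 overlapped the endothelial values of 1458, 1658 and 1027, with 961, 1202 and 1030.3 in mural and 335, 384 and 353 in neural libraries. The log2 difference was 0.68 ± 0.20 (SE) (adjusted p = 0.0216, exact permutation p = 0.0714), and it was no longer called without the second replicate (adjusted p = 0.083) or the third replicate (0.22). *Sgsh* (ENSMUSG00000005043, chr11:119343425-119355536), the sulfatase that acts on heparan sulfate, was low throughout. Endothelial libraries held 70.9, 395 and 225 normalized counts, microglial 195, 132 and 218, neural 107, 117 and 114 and mural 45.9, 66.2 and 53.5. The endothelial range took in all microglial and neural values and lay above the mural ones, and microglia did not pass against the vascular mean (0.81 ± 0.50 (SE), adjusted p = 0.234, exact permutation p = 0.333).

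Of the other 5 glycosidases, β-glucuronidase (*Gusb*, 3.31), α-N-acetylglucosaminidase (*Naglu*, 3.39), the sialidase *Neu1* (2.30) and β-mannosidase (*Manba*, 1.57) were called higher. α-Galactosidase A (*Gla*) had 1438, 994 and 1686 normalized counts in microglia and 0, 182 and 326 in endothelial libraries. With no read in the endothelial library of the first replicate, its difference had a large error (3.65 ± 1.43 (SE), adjusted p = 0.067). It was called without the first replicate (adjusted p = 0.00599), with a pseudocount of 5 (0.0259), and with edgeR (0.0369) or DESeq2 (0.012) on the recovered reads.

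Among the 7 enzymes and transporters of lipids, 6 rose in microglia. *Psap* (ENSMUSG00000004207, chr10:60277627-60302597) encodes prosaposin, the precursor of the saposins that help enzymes reach sphingolipids. Its microglial values were 84136, 87187 and 100812. Neural libraries held 9732, 9953 and 10968 normalized counts, more than the mural (5709.9, 4739 and 7357) and endothelial ones (5170.5, 6851 and 5189.7). The difference of microglia from the vascular mean was 3.97 ± 0.14 (SE) (adjusted p = 7.47e-09, exact permutation p = 0.0238). *Asah1* (ENSMUSG00000031591, chr8:41340197-41374773), acid ceramidase, had 13377, 11441 and 14274 in microglia and 2652, 3449 and 3465 in mural libraries. Endothelial libraries held 2367, 1376 and 1416 and neural ones 1218, 1284 and 1245. The microglial values were separate from the rest, with a log2 difference of 2.50 ± 0.18 (SE) (adjusted p = 1.02e-06, exact permutation p = 0.0238).

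*Smpd1* (ENSMUSG00000037049, chr7:105554360-105558389), acid sphingomyelinase, was the lipid enzyme that did not follow. Neural libraries held 1034, 1132 and 1239.6 normalized counts, above every other library. Microglia had 426, 147 and 346.2, mural cells 662, 154 and 765 and endothelial cells 395, 190.2 and 929. These 3 groups overlapped widely, and microglia did not pass against the vascular mean (-0.59 ± 0.60 (SE), adjusted p = 0.486, exact permutation p = 0.452).

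The cholesterol transporters *Npc1* (2.20) and *Npc2* (1.82) and the palmitoyl-protein thioesterase *Ppt1* (1.13) were called higher. So was *Lipa*, lysosomal acid lipase, by only 0.68 ± 0.15 (SE) (adjusted p = 0.00438), and its endothelial values of 6462, 5454 and 4418 overlapped the microglial 4845, 6132 and 6560.4. Leaving out the second or the third replicate ended that call (adjusted p = 0.0694 and 0.0633).

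All 5 membrane proteins rose in microglia. *Laptm5* (ENSMUSG00000028581, chr4:130913125-130936141), a lysosomal transmembrane protein of blood lineage cells, was found at 45227, 45959 and 51846 normalized counts in microglia and at 5617, 7056 and 5591 in endothelial libraries. Mural libraries held 20.1, 1.14 and 58.2 and neural ones 2.67, 3.32 and 2.91. Microglia thus stood above endothelial cells, and these above the rest, with no overlap, and the difference from the vascular mean was 7.36 ± 0.77 (SE) (adjusted p = 2.14e-05, exact permutation p = 0.0238). *Scarb2* (ENSMUSG00000029426, chr5:92441314-92506833), the receptor that carries glucocerebrosidase to the lysosome, had 3994, 4870.3 and 4591 in microglia. It had 516, 347 and 1031 in mural and 960.4, 914 and 1615 in endothelial libraries, but 5659, 5440.2 and 5505 in neural ones. The neural libraries were therefore the highest, while microglia exceeded the vascular mean by 2.48 ± 0.30 (SE) (adjusted p = 5.97e-05, exact permutation p = 0.0238).

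*Lamp2* (ENSMUSG00000016534, chrX:38401357-38456454), a major glycoprotein of the lysosomal membrane, showed the smallest difference of this group. Its microglial values were 12358, 12686 and 15900.5, its mural values 7851, 6136 and 7313, its endothelial values 3729.9, 2704 and 3897 and its neural values 1598, 1501 and 1602. Each population was separate from the next in that order, and the microglial difference was 1.47 ± 0.14 (SE) (adjusted p = 1e-05, exact permutation p = 0.0238). *Lamp1*, its close relative, rose by 2.01 on the log2 scale to 25806 ± 3293. The tetraspanin *Cd63* was as high in mural cells as in microglia and is described with the vascular comparison.

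Both other lumenal proteins rose. *Grn* (ENSMUSG00000034708, chr11:102430315-102437048), which encodes progranulin, was found at 28234, 32433 and 35088 normalized counts in microglia. It had 1865, 1162 and 2565 in mural, 1180.1, 3556 and 2398 in endothelial and 748, 851 and 924 in neural libraries. The difference was 4.02 ± 0.32 (SE) (adjusted p = 2.35e-06). *Acp2* (ENSMUSG00000002103, chr2:91202885-91214098), a lysosomal acid phosphatase, was spread more evenly, with 4367, 5662 and 4409 in microglia and 2211, 2198 and 2239 in neural libraries. Mural libraries held 1922, 1474 and 2299 and endothelial ones 689, 1148 and 1182. Microglia were nevertheless separate from all others, by 1.82 ± 0.20 (SE) (adjusted p = 2.97e-05). The exact permutation p was 0.0238 for both genes. Of the 36 members, 13 share exon bases with another gene of the annotation (*Fam171a2* with *Grn*, *Ddb2* with *Acp2*, *Tmem202* with *Hexa* and *Tmppe* with *Glb1* among them), and whether reads were counted by strand is not given in the sources used here, so reads in those bases cannot be told apart.

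The same comparison in single cells rested on other libraries and another chemistry. Of the 36 members, 34 passed the filter on low counts (*Naglu* and *Sgsh* did not), and 30 of these were higher and 1 lower in the microglia gate (edgeR quasi-likelihood test on sums per gate and plate). Among 9281 genes tested, 20.3% were called higher and 20.1% lower. For 26 members all microglial sums lay above all mural and endothelial ones, as for 10.3% of genes. The median log2 difference of the tested members was 2.83, against -0.0163 for all genes. In both data sets 29 members were called higher, which is 90.6% of the bulk calls and 96.7% of the single-cell calls, and *Ctsk* was called lower in both. Across the 33 tested members other than *Ctss* the differences had a Pearson r of 0.951 and a Spearman rho of 0.954, a description over genes, which are not independent replicates.

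**Figure D3:**
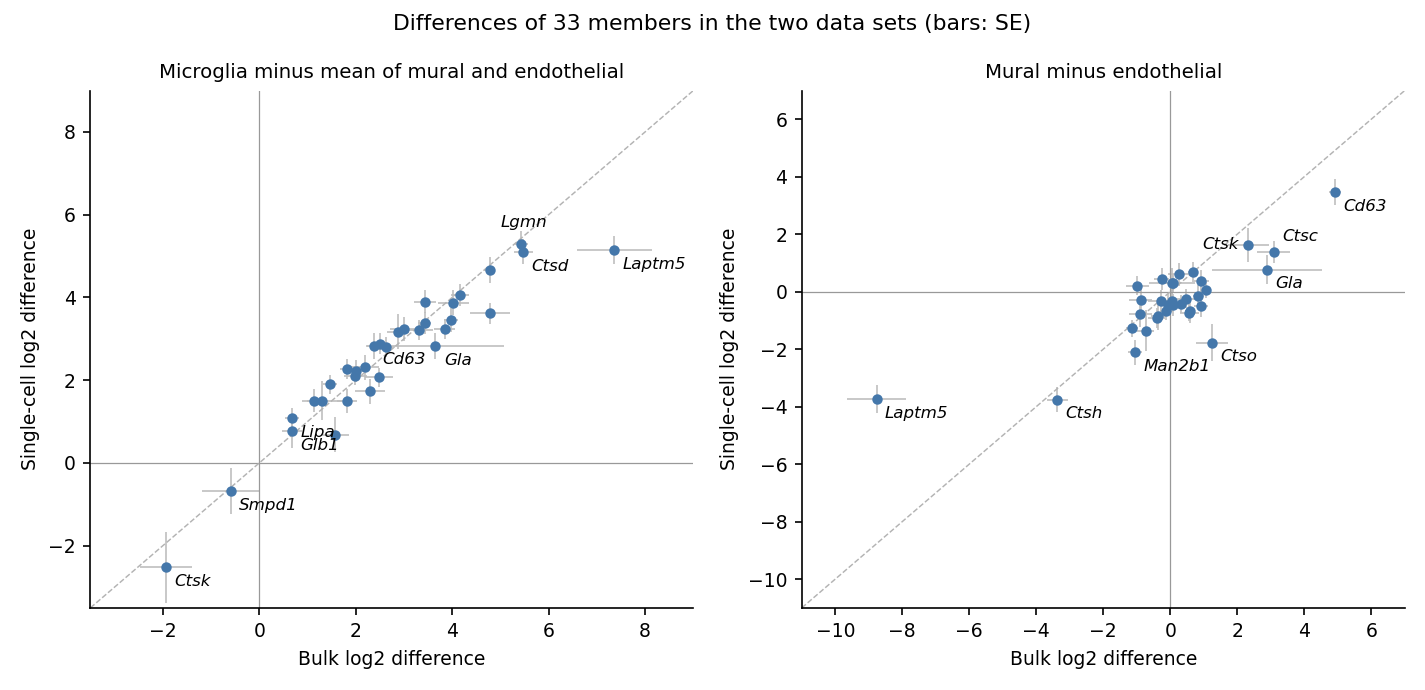
Log2 difference of each member in bulk (x axis) against single-cell sums (y axis), for microglia minus the vascular mean (left) and mural minus endothelial cells (right). Bars are standard errors, the dashed line marks equality, and *Ctss* is left out because its bulk value is only bounded. On the left the points run along the line, with r = 0.951 over 33 members, and on the right they scatter more.

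The single-cell sums, given as CPM (transcripts scaled to 1000000 per sum), were taken from other libraries than the bulk values. *Ctss* was at 2849.9, 2260 and 3324 CPM in the microglia gate on plates 1, 2 and 3. It was at 14.2, 20.1 and 27.5 in the mural, 88.8, 25.1 and 14.2 in the endothelial and 4.43, 7.1 and 10.9 in the neural gate. Unlike in bulk, a low level was thus present in every gate. *Ctss* was at 1.52%, 0.733% and 0.266% of its microglial mean in the endothelial, mural and neural gates. The 12 summed microglial markers were at 1.31%, 0.584% and 0.595% of theirs in the same order. Whether these levels are linked was not tested. *Ctsb* reached 4276, 4192 and 3362 CPM, the highest of all members, *Ctsd* 2219.9, 2348 and 1737 and *Grn* 1688, 1693 and 1618. For *Ctsd* and *Grn* the log2 differences from the vascular mean were 5.10 ± 0.30 (SE) and 3.88 ± 0.29 (SE) (adjusted p = 1.08e-21 and 3.02e-17). 

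*Glb1* (0.78 ± 0.41 (SE), adjusted p = 0.132), *Manba* (0.68 ± 0.42 (SE), 0.194) and *Smpd1* (-0.67 ± 0.56 (SE), 0.357) did not pass, whereas *Gla*, not called in bulk, was higher by 2.82 ± 0.32 (SE) (adjusted p = 4.44e-11). For *Ctsk* the difference was -2.52 ± 0.87 (SE) (adjusted p = 0.0154), on 2 transcripts in the microglia gate, 32 in the mural gate and 10 in the endothelial gate, and DESeq2 did not call it (adjusted p = 0.233). Among the members called higher, *Lipa*, *Ppt1* and *Acp2* lost the call without plate 1 (adjusted p = 0.204, 0.131 and 0.206), *Lipa* and *Acp2* also without plate 2 (0.196 and 0.0756), and all 3 with DESeq2 (0.144, 0.0874 and 0.109), as did *Ctso* with DESeq2 (0.252). In the microglia gate, 92 of 128 cells had fewer than 3 transcripts of the border macrophage markers. The members took 2.21% of the transcripts in these cells and 2.53% in the 36 others, at median depths of 9659 and 12346 transcripts per cell.

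Mural and endothelial cells differed in fewer members and in both directions. In bulk, 9 of 36 members were higher and 5 lower in mural than in endothelial cells, or 25% and 13.9%, against 13.5% and 14.3% of all genes. In single cells, 3 of 34 were higher and 6 lower, or 8.82% and 17.6%, against 9.17% and 11.5%. The lower share was thus close to that of all genes in bulk, as was the higher share in single cells. *Cd63*, *Ctsc* and *Ctsk* were called higher, and *Ctsh*, *Laptm5*, *Lipa* and *Man2b1* lower, in both data sets. The bulk count of members higher in mural cells fell to 5 without the third replicate, and the count lower in mural cells to 3 without the second replicate. Markers of other cells also differed between these samples. The 7 erythroid markers summed to 13054 to 34138 normalized counts in bulk endothelial and 242 to 598 in bulk mural libraries. The 10 mural markers were at 510, 113 and 3195 CPM in the endothelial gate on plates 1, 2 and 3, against 11215 to 13139 in the mural gate. On plate 3, *Gm10800* and mitochondrial genes took 45.4% of the endothelial and 25.9% of the mural transcripts. Without plate 3, 2 members were called higher and 7 lower in the mural gate, against 1 and 2 without plate 1 and 1 and 3 without plate 2. The 12 neural markers summed to 39143 to 69609 normalized counts in bulk mural and 28829 to 30322 in bulk endothelial libraries, against 171793 to 182574 in neural ones. The part of the erythroid and neural markers in these results, and of the neural markers in the neural comparison, was not tested.

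*Cd63* (ENSMUSG00000025351, chr10:128900989-128912822), a tetraspanin of late endosomes, lysosomes and exosomes, was a mural as much as a microglial transcript. Mural libraries held 12466, 13191 and 13249.8 normalized counts and microglial ones 11420.5, 11531 and 13984. Endothelial libraries held 505, 495 and 314 and neural ones 389.9, 443 and 502. The first 2 populations overlapped and so did the other 2, far below them, and the mural minus endothelial difference was 4.92 ± 0.19 (SE) (adjusted p = 1.51e-07). The exact permutation test of microglia against all 6 vascular libraries gave p = 0.405. In single cells the mural gate held 383, 423 and 275 CPM, the microglia gate 788, 596 and 572 and the endothelial gate 40.7, 6.28 and 85.5. Here microglia lay above mural cells on all plates, and the mural minus endothelial difference was 3.47 ± 0.44 (SE) (adjusted p = 3.72e-09). A *Cd63* transcript was found in 175 of 210 (or 83.3%, exact 95% interval 77.6 to 88.1) mural cells and 21 of 225 (or 9.33%, exact 95% interval 5.87 to 13.9) endothelial cells. With 1500 transcripts drawn from each cell the shares were 36.2% and 4%.

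*Ctsc* (ENSMUSG00000030560, chr7:88278085-88310888), or dipeptidyl peptidase I, which activates serine proteases of granules, was highest in microglia at 24506, 29823 and 50298 normalized counts. Mural libraries came next with 3497, 4088 and 3030, above the endothelial 1074, 269.7 and 244 and the neural 60.1, 59.3 and 53.9. All 4 groups were separate. The mural minus endothelial difference was 3.08 ± 0.48 (SE) in bulk (adjusted p = 0.000796) and 1.40 ± 0.38 (SE) in single cells (adjusted p = 0.00434), where DESeq2 (0.0621) and the sums without plate 1 (0.136) or plate 2 (0.177) did not call it. For *Ctsk* the difference was 2.33 ± 0.62 (SE) in bulk (adjusted p = 0.0168) and 1.62 ± 0.60 (SE) in single cells (adjusted p = 0.046). Its bulk call was lost without the second replicate (0.219) or the third (0.111), and its single-cell call without plate 3 (0.0792), with DESeq2 (0.695) and with a block for the plate (0.0667). Fibroblast markers, all 5 of which were found in bulk mural libraries at a sum of 3565 to 4954 normalized counts, were at 0 to 3.02 in endothelial libraries, and their part in the mural values was not tested.

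The other members higher in mural cells in bulk were *Lamp2* (1.05), *Acp2* (0.93), *Asah1* (0.93), *Ppt1* (0.84), *Ctsz* (0.68) and *Lgmn* (0.59), all by less than 4-fold. Of these 6 calls, 5 were lost when a replicate was left out. *Acp2* was not called without the first replicate (adjusted p = 0.122) or the third (0.0801), and neither was *Lgmn* (0.214 and 0.108). *Asah1* was not called without the second (0.122) or the third (0.126), and *Ppt1* (0.0667) and *Ctsz* (0.116) were not without the second. None of these 6 passed in single cells, where their log2 differences ran from -0.66 (*Lgmn*) to 0.68 (*Ctsz*).

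**Figure D4:**
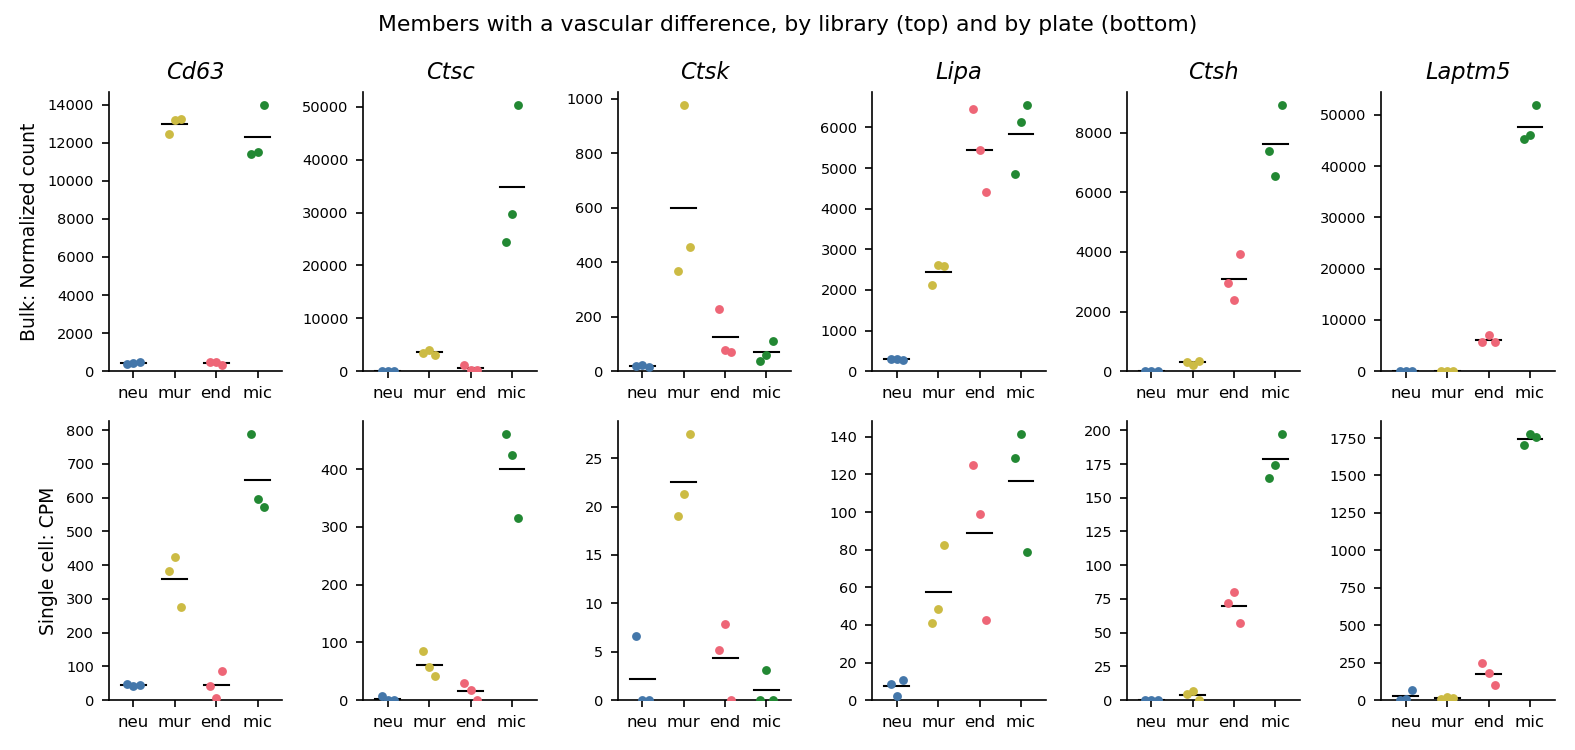
Values of 6 members that differed between mural and endothelial cells, as normalized counts in the 12 bulk libraries (top) and as CPM of single-cell sums per plate (bottom), for neural (neu), mural (mur), endothelial (end) and microglial (mic) samples. Points are libraries or plates and lines are means. *Cd63*, *Ctsc* and *Ctsk* are higher in mural samples, and *Lipa*, *Ctsh* and *Laptm5* in endothelial ones, on both scales, except that *Lipa* overlaps between gates in single cells.

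*Laptm5* and *Ctsh* marked the endothelial side. The mural minus endothelial difference of *Laptm5* was -8.77 ± 0.89 (SE) in bulk (adjusted p = 3.8e-05) and -3.73 ± 0.49 (SE) in single cells (adjusted p = 8.92e-09). Its single-cell levels were 245, 184 and 99.7 CPM in the endothelial gate, against 11.1, 20.1 and 13.7 in the mural and 1702, 1775 and 1757 in the microglia gate. The bulk endothelial mean of *Laptm5* was 12.8% of the microglial mean, whereas the 12 microglial markers summed to 0.0383% of their microglial level in the same libraries. In single cells the corresponding values were 10.1% and 1.31%. Of the 8 border macrophage markers, 6 were found in endothelial libraries at a sum of 6150.4 to 8196, with *Cd163* and *Ms4a7* at 0, and their part in these values was not tested. A *Laptm5* transcript was found in 140 of 225 (or 62.2%, exact 95% interval 55.5 to 68.6) endothelial cells and in 18 of 210 (or 8.57%, exact 95% interval 5.16 to 13.2) mural cells, at median depths of 6408 and 6885 transcripts per cell. Thinned to 1500 transcripts, the shares were 29.3% and 0.952%. Intervals of this kind cover counting error only.

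*Ctsh* (ENSMUSG00000032359, chr9:90054152-90076089), an aminopeptidase among the cathepsins, had 2947, 2399 and 3948 normalized counts in endothelial and 322, 221 and 353 in mural libraries. Microglial libraries held 7374, 6564 and 8922 and neural ones 2.67, 4.43 and 1.85. The 4 groups did not overlap. Endothelial cells thus reached 40.7% of the microglial mean and mural cells 3.92%, with a mural minus endothelial difference of -3.37 ± 0.32 (SE) (adjusted p = 2.49e-05). In single cells the endothelial gate held 71.9, 80.1 and 57 CPM and the mural gate 4.75, 7.09 and 0, a difference of -3.76 ± 0.44 (SE) (adjusted p = 7.01e-10). A transcript of *Ctsh* was found in 82 of 225 (or 36.4%, exact 95% interval 30.1 to 43.1) endothelial and 7 of 210 (or 3.33%, exact 95% interval 1.35 to 6.75) mural cells, and in 0 of 123 (or 0%, exact 95% interval 0 to 2.95) neural cells. The limit taken for a count of 0, 3 of 123 cells, is 2.44%. Both limits are on cells with a counted transcript and not on cells that express the gene.

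The mural minus endothelial difference of *Lipa* was -1.14 ± 0.17 (SE) in bulk (adjusted p = 0.000655) and -1.28 ± 0.31 (SE) in single cells (adjusted p = 0.00104). The single-cell call was lost with DESeq2 (0.26) and without plate 1 (0.732) or plate 2 (0.286). That of *Man2b1* was -1.05 ± 0.22 (SE) in bulk (adjusted p = 0.00449) and -2.11 ± 0.44 (SE) in single cells (adjusted p = 0.000118), without a bulk call when the second replicate was left out (0.101) and without a single-cell call when plate 1 (0.345) or plate 2 (0.0871) was. *Lipa* and *Man2b1* were thus lower in mural cells in both data sets, but their single-cell calls needed both well-filled plates. *Sgsh*, not tested in single cells, was lower in mural cells in bulk (-1.74 ± 0.57 (SE), adjusted p = 0.0439) but not called with a block for the brain (0.0569) or without the second replicate (0.223) or the third (0.258). With that block *Scarb2*, not called otherwise (-0.98 ± 0.34 (SE), adjusted p = 0.0555), was called lower in mural cells (0.0387). In single cells a block for the plate added *Tpp1* as a call (-0.73 ± 0.30 (SE), adjusted p = 0.0773 without and 0.0385 with it). The single-cell difference of *Ctss* (-1.67 ± 0.49 (SE), adjusted p = 0.00902) rested on plate 1, where the endothelial gate held 88.8 CPM of *Ctss* and 441 CPM of the 12 microglial markers, and did not pass without that plate (adjusted p = 0.966). *Ctso* was lower in the mural gate (-1.77 ± 0.64 (SE), adjusted p = 0.0381) on 8 against 27 transcripts, whereas its bulk difference was 1.23 ± 0.47 (SE) (adjusted p = 0.0764), and the single-cell call was lost with DESeq2 (0.457) and without plate 3 (0.0688).

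Neural cells had the lowest level of many members. In bulk, 30 of 36 members were lower and 3 higher in neural libraries than in the mean of the other 3 populations, against 31.2% and 32.9% of all genes. Because that mean includes microglia, the values were also set against the vascular libraries alone. For 18 members every neural library lay below every mural and endothelial library, as it did for 21.8% of all genes. In single cells, where all gates shared one chemistry, 26 of 34 members were lower, against 17.3% of all genes. In both data sets 25 members were called lower. The mean of the other gates includes microglia here as well, and members were not counted against the vascular gates alone. The 25 include *Psap* and *Man2b1*, whose neural mean was not the lowest. Bulk means were 10218 in neural, 5935 in mural and 5737 in endothelial libraries for *Psap*, and 612, 572 and 1196 for *Man2b1*. Pooled CPM in the same order was 127, 85.1 and 116 for *Psap* and 16.6, 11.6 and 49.2 for *Man2b1*. No member was called higher in the neural gate by edgeR or DESeq2 (22.5% of all genes were, by edgeR). None had an unadjusted p under 0.05 in that direction with either. Among the lowest were *Ctsh*, *Laptm5* and *Ctss*, given above, and *Ctsc*, with 0.166% of the microglial mean in bulk. *Lgmn* was at 0.449% and *Ctsb* at 1.43%. Markers of other cells were also found in neural samples. The 7 erythroid markers summed to 9042 to 11841 normalized counts in bulk neural and 1678 to 2075 in bulk microglial libraries. In the neural gate on plates 1, 2 and 3, the 12 microglial markers were at 24.4, 14.2 and 208 CPM. *Laptm5* was at 4.43, 7.1 and 65.7 CPM in the same sums. The part of these markers in the neural values was not tested.

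The 3 members called higher in bulk neural libraries were *Scarb2* (1.96 ± 0.28 (SE), adjusted p = 0.000119), *Smpd1* (1.63 ± 0.57 (SE), 0.0265) and *Npc1* (0.71 ± 0.27 (SE), 0.0402). With quantile normalization only *Scarb2* kept its call (adjusted p = 0.073 for *Smpd1* and 0.263 for *Npc1*), and leaving out a replicate ended the call of *Smpd1* (adjusted p = 0.0989 without the first replicate and 0.0566 without the third) and of *Npc1* (0.0888 without the second and 0.157 without the third). In single cells the order for *Scarb2* was different, with 73.1, 71 and 21.9 CPM in the neural and 181, 204 and 118 in the microglia gate, and the neural difference was -0.38 ± 0.27 (SE) (adjusted p = 0.278). *Smpd1* was highest in the neural gate in pooled CPM (31.1, against 22.6, 17.4 and 10.2 in the mural, endothelial and microglia gates), on 30 transcripts, with a difference of 0.88 ± 0.46 (SE) (adjusted p = 0.131). *Npc2* was at 151, 125 and 120.4 CPM in the neural, 109, 88.6 and 13.7 in the mural and 110.5, 118 and 57 in the endothelial gate. The neural values of *Npc2* lay above all 6 vascular ones, although they were far below those of microglia (428, 384 and 434). The neural difference from the other 3 gates was -0.33 ± 0.26 (SE) (adjusted p = 0.344), and without plate 3, where the neural gate held 14 cells, it was -0.54 and called lower (adjusted p = 0.0136). In bulk *Npc2* was at 3563, 3664 and 3781 normalized counts in neural, 5572, 5367 and 4767 in mural and 5518, 3431 and 3944 in endothelial libraries. The neural values there lay below all mural ones and within the endothelial range, and the neural difference of -0.96 ± 0.13 (SE) was called lower (adjusted p = 7.84e-05). *Psap* was at 119.6, 151 and 54.7 CPM in the neural, 95, 72.1 and 151 in the mural and 142, 83.3 and 57 in the endothelial gate, which overlapped. A *Psap* transcript was found in 70 of 123 (or 56.9%, exact 95% interval 47.7 to 65.8) neural cells.

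Other genes of the lysosomal pathway were counted in the microglial comparison from 6 lists. Of 20 further hydrolases 16 were higher and none lower in bulk microglia, and of 15 tested in single cells 12 were higher. The bulk count was 11 to 12 with a replicate left out, and the single-cell count was 7 without plate 1, 6 without plate 2 and 14 without plate 3. Over all genes tested the shares called were 19.6% higher and 17.6% lower in bulk and 20.3% and 20.1% in single cells, against which the counts of all 6 lists are to be read. *Arsb*, arylsulfatase B, had 1801 ± 368 normalized counts in microglia and a difference of 6.60 ± 1.22 (SE). *Dnase2a*, the acid DNase of macrophages, had 4678 ± 281 and 6.32 ± 0.60 (SE). *Ids*, iduronate sulfatase, had a difference of 0.21 ± 0.36 (SE) (adjusted p = 0.689) and was highest in neural libraries (4295 ± 167). Of 10 other membrane proteins, 5 were higher and 2 lower, led by the metal transporter *Slc11a1* (10.15 ± 0.98 (SE)) and *Cd68* (5.49 ± 0.19 (SE)), with *Laptm4b* lowest (-2.49 ± 0.21 (SE)). The 2 of 10 that were lower are near the share of all genes. The median log2 difference of the other hydrolases was 2.57, as for the members, and that of the other membrane proteins 1.04.

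The subunits of the proton pump had a smaller median difference in bulk than the members, although some subunits exceeded some members. The lists were not compared by a test. Of 18 subunits tested in bulk 16 were higher and 1 lower, with a median of 1.10, and of 16 in single cells 15 were higher and 1 lower. *Atp6v0a1* (2.27 ± 0.30 (SE)) and *Atp6v0b* (2.01 ± 0.14 (SE)) had the largest differences, and *Atp6v0e2* had the lowest (-3.29 ± 0.47 (SE), adjusted p = 0.000239), with its highest level in neural libraries (2698 ± 164 normalized counts). Sorting of enzymes was divided, with 2 of 6 genes higher and 1 lower in bulk, and 3 and 1 in single cells, where the single lower gene is again near the share of all genes. The higher calls depended on single samples, with 1, 2 and 0 left in bulk without the first, the second and the third replicate, and 0, 1 and 3 in single cells without plates 1, 2 and 3. *Nagpa*, which uncovers the mannose 6-phosphate tag, was higher by 1.86 ± 0.42 (SE) and *Gnptab*, which starts that tag, by 1.16 ± 0.40 (SE) (adjusted p = 0.0425). *Igf2r*, the cation-independent mannose 6-phosphate receptor, had 112, 83 and 39 normalized counts in microglia against 6808, 5913 and 6733 in mural and 1839, 3631 and 1469 in endothelial libraries. The difference was -5.68 ± 0.34 (SE) (adjusted p = 2.48e-07) in bulk and -5.27 ± 0.44 (SE) in single cells (adjusted p = 1.23e-15). *M6pr*, the cation-dependent receptor, named after its values were seen, did not follow *Igf2r*. It had 6227, 6879 and 8273 normalized counts in microglia, within the range of 9214, 7517 and 9645 in mural and 5518, 5018 and 6212 in endothelial libraries, with a difference of 0.02 ± 0.12 (SE) (adjusted p = 0.914). In single cells *M6pr* was higher in the microglia gate by 0.70 ± 0.23 (SE) (adjusted p = 0.012), so that of the 2 receptors only *Igf2r* was low in microglia.

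The MiT transcription factors, which bind the promoters of lysosomal genes, were higher in microglia in 3 of 4 cases. *Tfec* had 442, 483 and 729 normalized counts in microglia and was listed at 0 in all 9 other libraries. *Mitf* had 1570.2, 1946 and 1516 there and a mean of 31.5 ± 4.13 in neural libraries, and *Tfeb* did not pass (2.30 ± 0.85 (SE), adjusted p = 0.0559). Of 5 cysteine protease inhibitors tested 4 were higher. Among these, *Stfa1* and *Cst7* passed the filter on the mean only through their microglial reads, as did *Tfec* among the MiT factors. Such genes could not have been called lower, so they add no support to these counts. *Stfa1* and *Cst7* had 367, 356 and 505 and 11.9, 74.7 and 69.2 in microglia and no read elsewhere, although *Stfa1* belongs to a family of near-identical copies whose reads may be shared. In single cells neither *Stfa1* nor *Cst7* had a transcript in any gate, microglia included, whereas *Tfec* had 26 transcripts in the microglia gate. The 7 markers of monocytes and neutrophils summed to 2717 to 7693 normalized counts in the same bulk microglial libraries, and their part in the values of *Stfa1* and *Cst7* was not tested. *Cst6* did not pass (-0.52 ± 1.57 (SE), adjusted p = 0.828).

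Promoters of the members were read from RefSeq (GRCm38.p6, 250 bases before to 50 after each gene start), where 32 of the 36 genes had an entry. *Asah1*, *Ctsb*, *Ctsh* and *Npc1* had none. MiT factors bind variants of the E-box CACGTG, and TCACGTGA is the core of the element described for lysosomal genes, whereas GAGGAAGT is a core of the sites of PU.1, a factor of macrophages. Both strands were searched, and every TCACGTGA also holds CACGTG. TCACGTGA was present for 3 of 32 members (*Ctsa*, *Ctsd* and *Gla*), or 9.38%, against 1.12% of 27025 genes. CACGTG was present for 10 (31.25%, against 8.09%), namely the same genes and *Ctsf*, *Ctsl*, *Glb1*, *Lamp1*, *Lgmn*, *Naglu* and *Sgsh*. GAGGAAGT was present for *Ctsc*, *Ctss*, *Gla* and *Gusb* (12.5%, against 3.69%). A match is a description of the sequence and not a site. The following windows of 30 bases show the matches with the gene's strand 5′ to 3′ and the motif in capitals, for *Ctsd*, a leading microglial protease, for *Gla*, which holds both motifs (the farther of its 2 TCACGTGA matches is shown, and the other begins 195 bases before the start), and for *Ctsc* and *Ctss*, the cathepsins with the GAGGAAGT core (found as ACTTCCTC). They lie at chr7:142387908-142387937 (minus strand), chrX:134601215-134601244 and chrX:134601135-134601164 (minus strand), chr7:88277923-88277952 (plus strand) and chr3:95526773-95526802 (plus strand). The motif begins 99, 228, 148, 151 and 2 bases before the RefSeq gene start in the same order. The GENCODE annotation, from which gene coordinates are given above, has the same start for *Ctsc* and *Ctss*, whereas the RefSeq start lies 211 bases inside the GENCODE gene for *Ctsd* and 120 bases inside it for *Gla*. The *Ctsd* window thus lies within the GENCODE gene.
*Ctsd*: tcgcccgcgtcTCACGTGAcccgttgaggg
*Gla*: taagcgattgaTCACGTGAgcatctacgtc
*Gla*: tgagatgccgcACTTCCTCctcctttggaa
*Ctsc*: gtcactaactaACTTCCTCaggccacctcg
*Ctss*: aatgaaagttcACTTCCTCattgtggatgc

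On knockout plate 5 the members were again found mainly in microglia-like cells. The targeted gene *Kat8* was at 6.89 to 12.8 CPM in the 4 libraries and at 0 to 59.1 CPM in the wild-type sums, on few transcripts, so these libraries do not check the label. Of 195 cells with more than 1500 transcripts, 79 (40.5%) were microglia-like by their marker genes, none of which is a member, 114 were neural-like and 2 were vascular-like. The 4 libraries held 31, 29, 8 and 11 microglia-like cells. In these the members took 1.88%, 1.67%, 1.76% and 1.89% of transcripts, against 0.0962% to 0.152% in the other cells. For 31 members the microglia-like cells of every library lay above the other cells of every library, as for 13.4% of the 10968 genes with at least 10 transcripts. The members that overlapped were *Ctsk* (no transcript on the plate), *Ctso*, *Naglu*, *Sgsh* and *Smpd1*. With 1 plate of knockout cells, the plate and the genotype cannot be told apart, so the values below are given without a test.

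The plate 5 share of each library was below that of the 3 wild-type plates (2.17% to 2.35%). None of the members was above all wild-type plates in all 4 libraries, where this held for 3.98% of genes, and 6 members (16.7%) were below, against 3.14% of genes. *Ctsl* was at 663, 647, 624 and 530.1 CPM in the 4 libraries and at 1289, 1430.2 and 1243 on the wild-type plates. *Ctss* was at 1520.4, 1031, 1185 and 1669, against 2849.9, 2260 and 3324. *Cd63* was at 355, 414, 560.1 and 487, against 788, 596 and 572. These 3 were the lowest relative to wild type, with pooled ratios of 0.471, 0.508 and 0.599. The other 3 were *Npc2* (0.712), *Grn* (0.789) and *Laptm5* (0.837). The median ratio was 0.849 over the 35 members with at least 10 transcripts on both sides and 0.992 over 7301 genes. Ratios above 1 were found for 9 members, the highest for *Glb1* (1.39), *Sgsh* (1.27) and *Ctsc* (1.25). Those of *Glb1* and *Sgsh* rested on few transcripts, 32 and 11 on plate 5 and 40 and 15 in wild type. *Ctsc* was at 508, 523, 305 and 976 CPM, against 461, 425 and 315 on the wild-type plates.

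**Figure D5:**
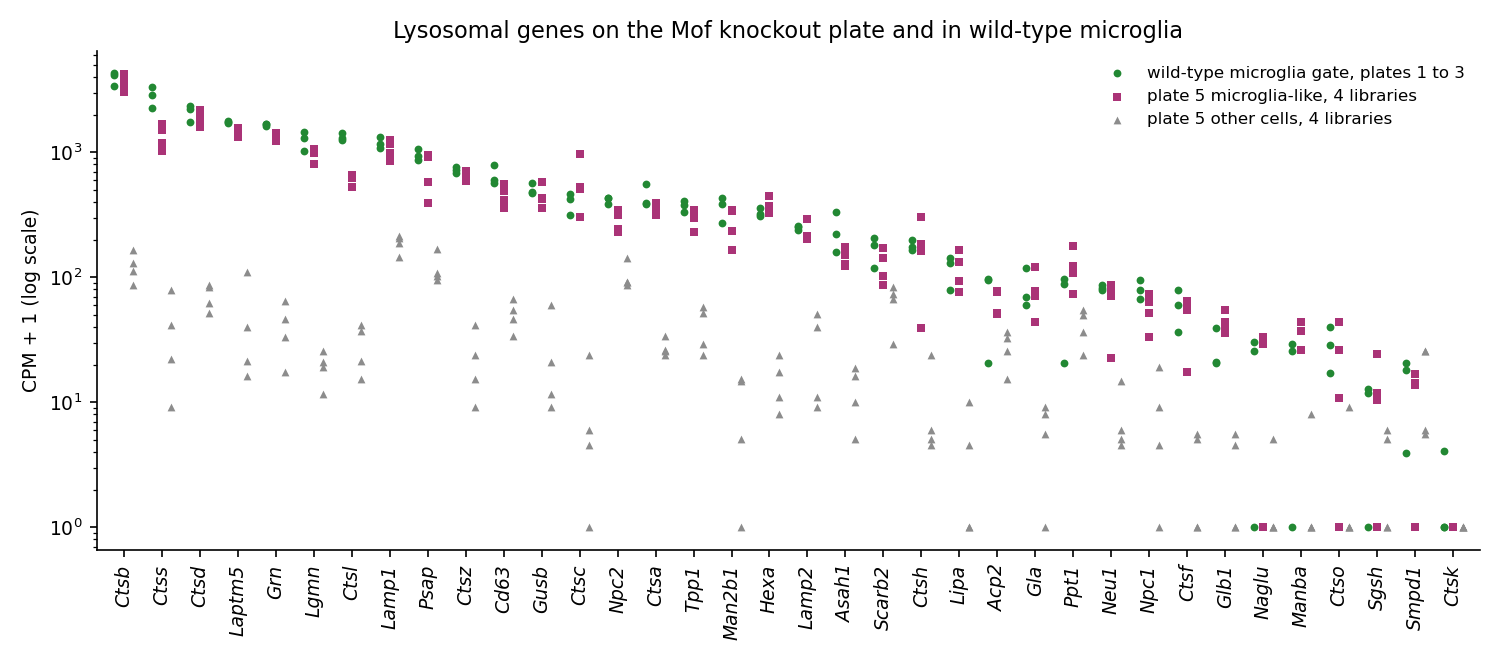
CPM plus 1 on a log scale for each member, in the wild-type microglia gate on plates 1 to 3 (circles), in microglia-like cells of the 4 libraries of plate 5 (squares) and in the other cells of that plate (triangles), ordered by the wild-type level. The squares follow the circles and lie above the triangles for 31 members, and lie below all circles for 6, including *Ctsl* and *Ctss*.

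Marker genes also differed between plate 5 and wild type. The 12 microglial markers summed to 9352 to 13045 CPM in the microglia-like cells of plate 5 and to 13637 to 14078 in the wild-type microglia gate. The 12 neural markers summed to 202 to 420 and to 190 to 223 CPM in the same order. The part of any of these markers in the member values was not tested. Border macrophage markers were higher on plate 5. They summed to 1203 to 3391 CPM in the microglia-like cells of plate 5 and to 39.4 to 281 CPM in the wild-type microglia gate, with 7 of 8 and 5 of 8 markers above 0 (*Cbr2* at 0 in both, *Lyve1* and *Cd163* at 0 in wild type). At least 3 such transcripts were found in 45 of 79 cells on plate 5 and in 36 of 128 wild-type cells. In the 34 plate 5 cells with fewer than 3, the members took 1.98% of transcripts, and 1.69% in the 45 others. In the wild-type gate the order was the reverse, with 2.21% and 2.53%. The split also follows depth, with a median of 7202 transcripts per cell in the first group and 10633 in the second. *Ctsl* was at 1010.2 CPM in the first group and 440.2 in the second, *Psap* at 1090 and 564, and *Ctsc* at 403 and 625. All 6 members that were below the wild-type plates were also below them in the cells with few border macrophage transcripts, pooled over libraries.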

How the data were processed

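The members and gene lists were chosen with earlier results of these data known. For the bulk libraries the authors aligned reads to mm10 (their notes list STAR, BWA 0.6.2-r126, featureCounts and DESeq2) and deposited counts divided by a size factor, here called normalized counts, a signal per gene for each of the 12 libraries. Whole reads were recovered from them (100% of 124078 low values within 0.01). The deposited single-cell tables hold expected counts, transcripts estimated from molecular identifiers per well, and further deposited annotation of wells (other fields) gave plate and sort gate.

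Bulk values were tested as log2(normalized count + 1) with limma 3.58.1 (R 4.3.3) over all 12 libraries, for 19765 genes with a mean of at least 10. Wells with more than 1500 transcripts were summed by gate and plate, rounded and tested with edgeR 4.0.16 (quasi-likelihood, TMM). The threshold was an adjusted p of 0.05 (Benjamini-Hochberg). Exact permutation tests were two-sided. By a fixed rule, the values of every library are given for the 2 members with the largest and the 1 with the smallest bulk microglial difference in each role group, for members highest outside microglia and for those with an over 4-fold mural minus endothelial call. Other members are given by their difference (with values where their groups overlapped, chosen after the values were seen), and pathway genes are the 2 with the largest and the 1 with the smallest difference of each list. On simulated data limma recovered 72 of 100 genes changed 2-fold and 100 of 100 changed 8-fold in bulk. For single cells edgeR recovered 8 of 100 and 100 of 100, a rate over genes drawn at random with 1 assumed spread, which need not hold for any one gene.

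Same-numbered bulk libraries were taken to share a brain, because the study collected the 4 populations together from 3 brains, although the labels give only the number. Their deviations from the group means correlated at only -0.054 to 0.0801, and 7 of 12 libraries correlated best with one of their own number. Same-plate single-cell sums, paired by the labels, correlated at -0.0407 to 0.129. Fits with a block were run as alternatives, besides other pseudocounts, filters, normalizations, DESeq2 1.42.0 and each replicate left out. Intervals and floors (3 counts) cover counting error only. Python 3.11.15 was used for the rest.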

Additional observations from a re-analysis of the deposited data

Results flagged for a closer look

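In 4 of 57 groups of 4 plate 5 libraries with member values, the highest or lowest library stood apart from the other 3 by a share of the range above Dixon's 95% critical value for 4 samples, where chance gives about 1 in 20. *Naglu* was at 0 CPM in the microglia-like cells of library 7 and at 28.5 to 32.4 in the others. *Lamp2* was at 293 CPM in the same cells, against 202 to 212. *Npc2* was at 141 CPM in the other cells of library 8, against 85.4 to 91.3. *Psap* was at 169 CPM in the other cells of library 5, against 94.2 to 107. Library 7 held only 8 microglia-like cells.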

How the results depend on the processing

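No difference of a member reversed under any alternative. In bulk the call was the same in 417 of 432 combinations of member and alternative for microglia, 373 of 396 for mural minus endothelial and 380 of 396 for neural cells, and in single cells in 284, 270 and 288 of 294. With single bulk replicates left out, 29 to 32 members were called higher in bulk microglia and 0 to 1 lower, 5 to 7 were called higher and 3 to 7 lower in mural than in endothelial cells, and 1 to 2 were called higher and 27 to 29 lower in neural cells. With single plates left out the counts were 26 to 31 and 0 to 1, 1 to 2 and 2 to 7, and 0 and 22 to 29. Against all 3 other populations, 0 members were lower in bulk microglia. Quantile normalization left 1 member higher in bulk neural cells and shifted the median of all genes by -0.254. No member was called lower in single-cell microglia (0) with DESeq2. The count was also 0 above 3000 transcripts, without mitochondrial genes and *Gm10800*, and without plate 1 or plate 2, but there *Ctsk*, the one member called lower, did not pass the filter on low counts and was not tested. DESeq2 left 1 member higher and 3 lower in mural than in endothelial single cells, and its medians shifted by up to -0.157. The cause was not tested, but DESeq2 called fewer genes overall. It called 8.37% higher and 9.88% lower in microglia, 2.97% and 3.95% between mural and endothelial cells, and 11.4% and 7.81% in neural cells, of the 11841, 11426 and 12669 genes to which it gave an adjusted p. Among the 9281 genes that edgeR tested, DESeq2 called 942 higher and 1153 lower in microglia, where edgeR called 1883 and 1861. With no filter on low values, in which more genes are tested, these shares were 12.2% and 9.52%, 6.77% and 7.53% in bulk, with 18.7% lower in neural cells, and 9.73% and 9.59%, 4.52% and 5.43%, and 12.6% and 8.5% in single cells. Among pathway genes in bulk microglia, enzyme sorting had 1 gene higher with no minimum or with edgeR (0 to 2 without a replicate), the proton pump had 2 lower with DESeq2 or against all 3 others, and other hydrolases had 1 lower against all 3 others. In single cells the proton pump had 0 lower with DESeq2 (0 to 1 without a plate), enzyme sorting 1 higher with DESeq2 (0 to 3), other membrane proteins 1 lower with no filter (1 to 2), the MiT factors 1 higher above 3000 transcripts or without mitochondrial genes and *Gm10800* (1 to 3), and other hydrolases 6 to 14 higher without a plate. The members summed to 17889 CPM in microglia-like cells of plate 5, to 8792 in all its cells and to 19790 in cells with few border macrophage transcripts, an alternative chosen after seeing the data. A replicate block for the brain left 32 members higher in bulk microglia, and the blocks for brain and plate changed no other call of a member than the 4 between mural and endothelial cells given above (*Sgsh* and *Scarb2* in bulk, *Ctsk* and *Tpp1* in single cells). Exact permutation tests without a replicate were not run, since no p under 0.05 is possible. Plate 3, with few cells, and 3 samples a group limit what could be detected.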
